A study of Mus musculus with 3 samples.

Results

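Aquaporins are membrane channels for water and, in some members, for glycerol and other small solutes. In the kidney Aqp1 carries water across proximal tubules, thin descending limbs and the descending vasa recta, while vasopressin moves Aqp2 into the apical membrane of principal cells and Aqp3 and Aqp4 let that water leave through the basolateral side. Aqp6 lies in vesicles of acid-secreting intercalated cells, Aqp7 is a glycerol channel of the straight proximal tubule, Aqp9 is a channel for glycerol and other neutral solutes known from liver and leukocytes, and Aqp11 is an intracellular channel of the proximal tubule.

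The 8 genes Aqp1, Aqp2, Aqp3, Aqp4, Aqp6, Aqp7, Aqp9 and Aqp11 were taken by name from the 27998 genes of the files, which list 12 aquaporin genes in all. They were followed in single-cell RNA sequencing of kidneys collected on day 14 after folic acid (FA), a crystal-forming tubular toxin that leads from acute injury to fibrosis. All mice were 6 to 8 weeks old per the labels and received FA. The study's figure legends give an older age range for the male mice of its FA experiments. There were 2 libraries of Aoah-/- mice (replicates 2 and 3), which carry a deletion of acyloxyacyl hydrolase in every cell, and 1 library of a WT mouse (replicate 3). Per the study's methods the knockout was backcrossed to C57/BL6J, and per the labels the kidneys were perfused, digested with collagenase IV and DNase I, strained and cleared of erythrocytes.

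With a single WT library there was no test of genotype, and no p-value is given. Each level is the sum of a gene's unique molecular identifiers (UMIs) over the cells of a class in 1 library, scaled to 1000000 UMIs of those cells (CPM), and its 95% Poisson interval covers counting error only. A log2 ratio sets the mean of the 2 Aoah-/- libraries against WT, with the SD between those 2 libraries, and a gene was counted as past the fold when both Aoah-/- libraries lay at least 1.5-fold to the same side of WT. Nothing here separates the genotype from the individual WT mouse, so the 2 cannot be told apart.

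The deposited matrices held 158551992 to 167222984 UMIs a library, and 18202 to 21368 cells a library were kept, with medians of 3357 to 3859 UMIs. Between 0.529% and 0.621% of kept cell barcodes occurred in another library. The 23 classes named from markers held 92.7% of the 59262 kept cells. Aoah-/- 3 stood apart in that 17.6% of its cells stayed unnamed, against 1.90% and 2.42% in the other libraries. Of its 3458 unnamed cells, 2383 lay in 1 cluster whose best class was proximal tubule (PTEC), unnamed because endothelial markers were mixed in. That cluster held 235 cells of Aoah-/- 2 and 143 of WT. The lowest barcode of Aoah-/- 3 held 1672 UMIs, against 500 in both others. The targeted gene Aoah was at 6.75 and 6.19 CPM in the Aoah-/- libraries and 18.2 CPM in WT, so its transcripts were lower but counted in every library, and 3′ reads outside a deleted part would not show a deletion.

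The 8 genes lie on 6 chromosomes, with 2 close pairs among them. In GRCm38 and the GENCODE M21 annotation, Aqp2 (chromosome 15, 99579055 to 99584547, plus strand) ends 16.8 kb before Aqp6 (99601400 to 99605477, plus strand), with Aqp5 between them. Aqp7 (chromosome 4, 41033074 to 41048139) and Aqp3 (41092722 to 41098183), both on the minus strand, are 44.6 kb apart. Away from the other aquaporins lie Aqp4, Aqp1 on chromosome 6 (55336432 to 55348555, plus strand), Aqp9 on chromosome 9 (71110659 to 71168682, minus strand) and Aqp11 on chromosome 7 (97724006 to 97738289, minus strand). The neighbours of each pair differed in the cell class with the most UMIs or the highest level, as the levels given further on show.

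Promoters are shown for the neighbours Aqp2 and Aqp6 and for Aqp3, which was counted in the same cells as Aqp2. Each is the RefSeq sequence of the 250 bases before the RefSeq start of the gene in GRCm38.p6, which lies at 99579056 for Aqp2, 41098183 for Aqp3 and 99601200 for Aqp6 and, for Aqp2 and Aqp6, differs from the GENCODE M21 bounds printed above. The sequences are written 5′ to 3′ on the gene's strand, and 7 of the 8 genes had such a window. Capitals mark every match on either strand to TGACG (the core of a cAMP response element), GATAA (bound by GATA factors), TGTTTA (a forkhead motif) and TATAA.
Aqp2, chr15:99578806-99579055, plus strand: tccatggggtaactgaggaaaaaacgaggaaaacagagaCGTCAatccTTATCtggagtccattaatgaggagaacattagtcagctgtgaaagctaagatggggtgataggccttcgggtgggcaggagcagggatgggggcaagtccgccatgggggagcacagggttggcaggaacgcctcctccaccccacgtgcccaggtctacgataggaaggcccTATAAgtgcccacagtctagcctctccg
Aqp3, chr4:41098184-41098433, minus strand: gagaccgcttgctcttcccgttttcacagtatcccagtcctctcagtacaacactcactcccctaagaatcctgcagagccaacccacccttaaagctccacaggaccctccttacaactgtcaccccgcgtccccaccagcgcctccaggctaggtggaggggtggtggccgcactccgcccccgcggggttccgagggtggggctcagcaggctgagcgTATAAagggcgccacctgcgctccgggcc
Aqp6, chr15:99600950-99601199, plus strand: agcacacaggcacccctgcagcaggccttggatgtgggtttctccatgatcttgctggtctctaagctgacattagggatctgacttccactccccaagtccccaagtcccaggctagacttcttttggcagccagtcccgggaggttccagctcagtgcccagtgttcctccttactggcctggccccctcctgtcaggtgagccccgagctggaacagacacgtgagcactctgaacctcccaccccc
The Aqp2 window held a reversed TGACG 211 bases before the start, a reversed GATAA at 202 bases and a TATAA at 28 bases. In the Aqp3 window TATAA lay at 29 bases, and in the Aqp6 window none of the 4 motifs was matched. Among 32851 promoter windows of this length TGACG occurred in 17.8%, GATAA in 22.6%, TGTTTA in 12.0% and TATAA in 22.8%, so these matches are common and are given as description.

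Most UMIs of each aquaporin came from a few cell classes. PTEC-like cells carried 58.6%, 47.3% and 74.0% of the Aqp1 UMIs of Aoah-/- 2, Aoah-/- 3 and WT, and endothelial-like cells 28.1%, 31.7% and 12.2%. Principal-like cells carried 63.0%, 58.5% and 63.2% of Aqp2. In every library more Aqp6 UMIs came from intercalated-like cells (78.9%, 86.5% and 87.3%) than from all other classes together. PTEC-like cells carried 80.2%, 70.3% and 84.1% of Aqp7 and 81.0%, 70.8% and 88.8% of Aqp11. The PTEC-like shares leave out the unnamed cluster with PTEC as its best class. That cluster held 315, 1077 and 276 UMIs of Aqp1, 10, 61 and 7 of Aqp7, and 75, 330 and 72 of Aqp11. For Aqp3 and Aqp9 the leading class changed with the library. Aqp3 came mostly from urothelial-like cells in Aoah-/- 2 (56.4%), whereas urothelial-like cells gave 25.9% in Aoah-/- 3 and 19.1% in WT. In WT, PTEC-like cells (26.0%) and principal-like cells (25.4%) gave more Aqp3. Aqp9 came mostly from macrophage-like cells in Aoah-/- 2 (54.8%) and from granulocyte-like cells in Aoah-/- 3 (52.8%).

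**Figure D1:**
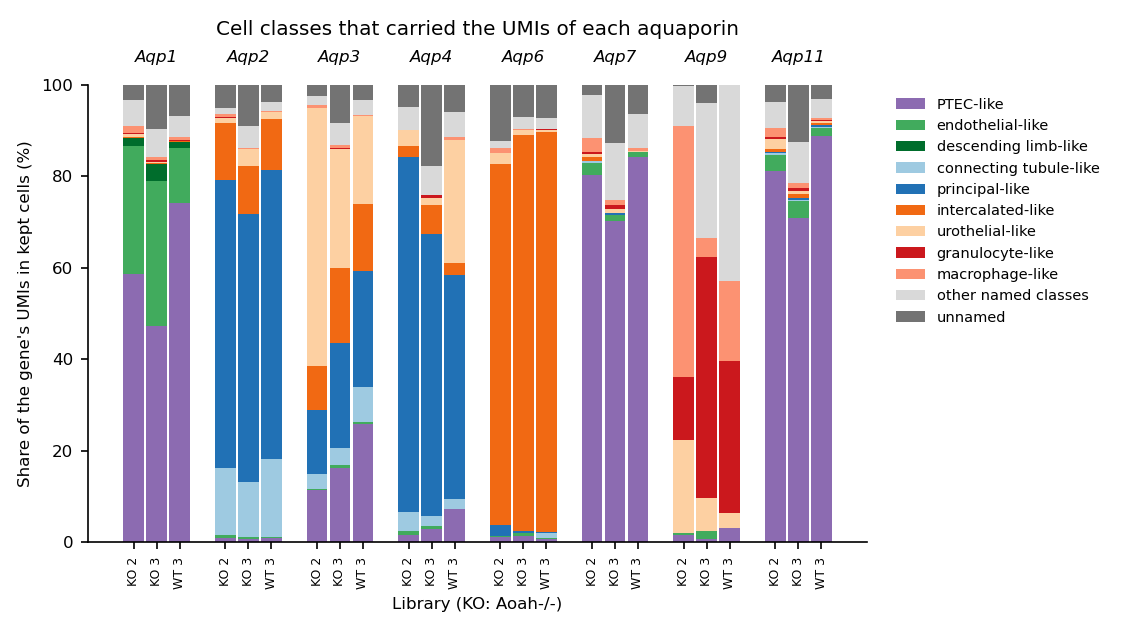
Share of each aquaporin's UMIs in kept cells (vertical axis, percent) by cell class, with 1 stacked bar per library (KO 2 and KO 3 are the Aoah-/- libraries, WT 3 the WT library). Endothelial-like cells make 28.1% and 31.7% of the Aqp1 bars of the Aoah-/- libraries and 12.2% of the WT bar, and the Aqp3 and Aqp9 bars differ most in make-up between libraries.

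Over all kept cells, the level of Aqp2 was 51.7, 56.8 and 53.3 CPM in Aoah-/- 2, Aoah-/- 3 and WT (log2 ratio 0.03, SD 0.10), and that of Aqp1 was 107, 114 and 125 CPM (log2 ratio -0.18, SD 0.07). Aqp11 stood at 22.5 and 25.7 CPM in the Aoah-/- libraries and 33.5 CPM in WT (log2 ratio -0.47, SD 0.13). These whole-library values move with class sizes: PTEC-like cells numbered 8128, 4815 and 9383 and endothelial-like cells 1058, 1340 and 742, and more cells of a class cannot be told apart from more RNA per cell at that level. The levels within classes follow.

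Aqp1 was highest in descending limb-like cells, then in endothelial-like cells and then in PTEC-like cells, and the library ranges of these 3 classes did not overlap. The next classes, erythroid-like and fibroblast-like cells, overlapped each other. Descending limb-like cells were named when cells first named injured tubule-like were clustered again, and numbered 15, 17 and 15. In them Aqp1 was at 1602 CPM in Aoah-/- 2, 3199 CPM in Aoah-/- 3 and 1608 CPM in WT. Aoah-/- 3 was highest and the other 2 libraries were nearly equal (log2 ratio 0.58, SD 0.71). Aqp1 UMIs were found in 53.3%, 76.5% and 40.0% of these cells. Their summed descending limb markers were 3030, 6068 and 1319 CPM and their injured tubule markers 12518, 22965 and 6683 CPM, also highest in Aoah-/- 3, and the part of these in the Aqp1 level was not tested.

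In PTEC-like cells Aqp1 was at 148 CPM in Aoah-/- 2 (interval 144 to 151), 143 CPM in Aoah-/- 3 (140 to 146) and 157 CPM in WT (154 to 160). Both Aoah-/- libraries lay slightly below WT (log2 ratio -0.11, SD 0.03). In these cells injured tubule markers summed to 1022, 913 and 344 CPM, higher in both Aoah-/- libraries, and erythroid markers to 114, 145 and 389 CPM, highest in WT. Their part in the PTEC-like levels of Aqp1, Aqp7 and Aqp11 was not tested. PTEC-like subclusters were called by the difference of their S1/S2 and S3 marker scores, each a mean log2 difference from the whole class. The S3-like cells include a subcluster of 2338 cells with an S3 score of -0.93 and an S1/S2 score of -2.12. Split in this way, cells called S1/S2-like had 133, 111 and 110 CPM (log2 ratio 0.15, SD 0.18). S3-like cells had 173, 179 and 177 CPM (log2 ratio -0.01, SD 0.04). Thus S3-like cells held more Aqp1 than S1/S2-like cells in each library, and within the called segments the Aoah-/- libraries were not both below WT. The S1/S2-like share of PTEC-like cells was 32.8%, 47.3% and 18.7%, and the S3-like share 31.5%, 42.9% and 44.1%. The remaining 35.7%, 9.84% and 37.3% were called neither, unevenly between libraries. In them Aqp1 was at 109.6, 114.5 and 140.6 CPM (log2 ratio -0.33, SD 0.045), with both Aoah-/- libraries below WT. The part of this make-up and of the uncalled cells in the class-wide ratio was not tested. Of the 5187 genes tested in PTEC-like cells, 1.91% were past the fold above WT and 0.945% below. None of the 3 aquaporins among them (Aqp1, Aqp3, Aqp11) was, and their median log2 ratio was -0.11, against -0.06 for all genes tested.

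Endothelial-like cells had Aqp1 at 865 CPM in Aoah-/- 2 (interval 838 to 892), 701 CPM in Aoah-/- 3 (681 to 722) and 565 CPM in WT (540 to 591). Both Aoah-/- libraries were above WT and their counting intervals did not overlap with it (log2 ratio 0.47, SD 0.21). Only 11.8%, 13.1% and 12.1% of the cells held an Aqp1 UMI, and single cells held up to 436, 327 and 293 of them. Most of the signal came from 1 subcluster, led by the urea transporter gene Slc14a1, with 42, 50 and 39 cells. In it Aqp1 was at 9142, 8976 and 7205 CPM, which was 88.3%, 79.6% and 93.0% of the Aqp1 UMIs of the class (log2 ratio 0.33, SD 0.02). Slc14a1 itself was at 2102, 2103 and 1329 CPM there, higher in both Aoah-/- libraries as well. The subcluster made up 3.97%, 3.73% and 5.26% of the class, so its share was lower in the Aoah-/- libraries while its Aqp1 level was higher.

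Outside the Slc14a1-led subcluster, endothelial-like Aqp1 was at 110, 153 and 42.9 CPM (log2 ratio 1.61, SD 0.33). Here both Aoah-/- libraries were past the fold above WT, as were 2.58% of the 6944 genes tested in these cells, with 0.85% below WT. In both Aoah-/- libraries the most Aqp1 UMIs outside it, 234 and 404, lay in a subcluster led by the proximal tubule genes Kap and Slc27a2, with 48, 133 and 14 cells and Aqp1 at 737, 616 and 57.3 CPM. A further 20 cells of the class, all from Aoah-/- 3 and led by Lcn2 and Mmp7, held Aqp1 at 4455 CPM from 198 UMIs. Slc14a1 was also among their leading genes, though they are counted here as outside the Slc14a1-led subcluster. The summed PTEC markers in endothelial-like cells were 2624, 3019 and 2060 CPM, higher in both Aoah-/- libraries, and the erythroid markers 510, 2157 and 6826 CPM, highest in WT. Their part in the Aqp1 levels was not tested. Of 6948 genes tested in endothelial-like cells, 2.33% were past the fold above WT and 0.691% below. Neither of the 2 aquaporins tested, Aqp1 and Aqp11, was past it over the whole class.

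**Figure D2:**
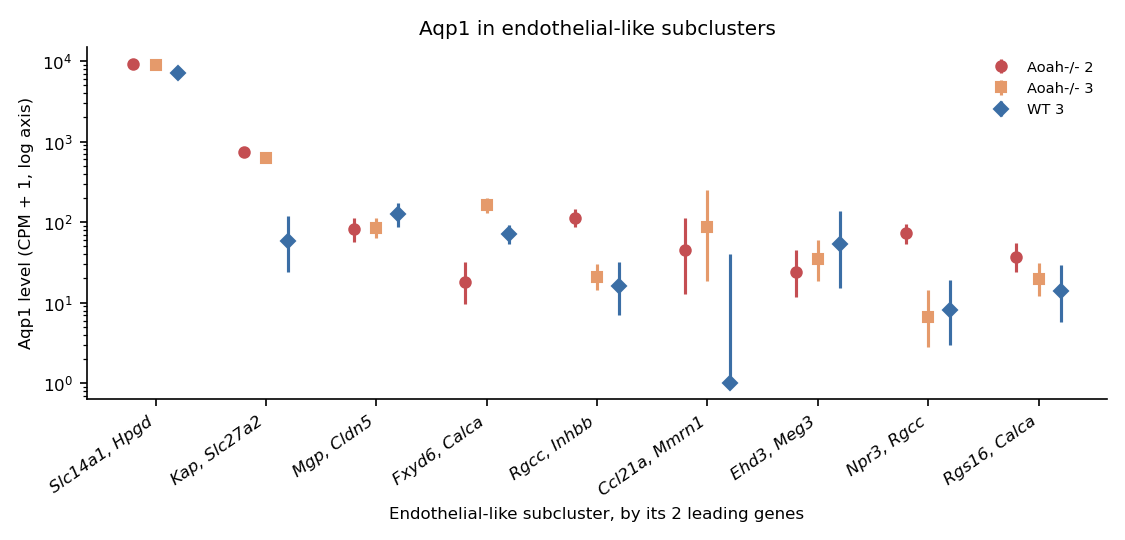
Aqp1 level (CPM + 1, log axis) in endothelial-like subclusters, each called by its 2 leading genes, with 1 point per library and its 95% Poisson interval. Only subclusters that themselves met the endothelial naming rule are drawn, so the Lcn2- and Mmp7-led cells are not shown. The Slc14a1-led subcluster stands at 9142, 8976 and 7205 CPM, and the Kap-led subcluster shows the Aoah-/- libraries at 737 and 616 CPM above WT at 57.3 CPM.

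Aqp2 was highest in principal-like cells, followed by connecting tubule-like and intercalated-like cells, and these 3 classes did not overlap in level. Principal-like cells were few, with 91, 119 and 96 cells. Aqp2 was at 4105 CPM in Aoah-/- 2 (interval 3984 to 4230), 3694 CPM in Aoah-/- 3 (3585 to 3806) and 3593 CPM in WT (3485 to 3704). Aoah-/- 2 was highest, and Aoah-/- 3 and WT overlapped in their counting intervals (log2 ratio 0.12, SD 0.11). The median principal-like cell held 36, 27 and 30.5 Aqp2 UMIs, and 97.8%, 88.2% and 80.2% of cells held at least 1.

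A subcluster of the principal-like cells was led by Clu, the clusterin gene that injured tubules express, and had low Aqp2. These cells were first named injured tubule-like and became principal-like only when that group was clustered again. Their principal marker strength was 5.31 (mean log2 difference of the best markers), with injured tubule second at 4.15. The Clu-led subcluster comprised 13, 13 and 35 cells, or 14.3%, 10.9% and 36.5% of the class. It was thus a larger part of the class in WT. Aqp2 there was at 843, 326 and 324 CPM. In the remaining 78, 106 and 61 cells Aqp2 was at 4571, 4188 and 6093 CPM (log2 ratio -0.48, SD 0.09). The order thus turned when these cells were left out, with both Aoah-/- libraries below WT, and it turned likewise (log2 ratio -0.43) when cells above 20% mitochondrial UMIs were left out and 35, 58 and 36 principal-like cells remained. The summed markers of injured tubules in the whole class were 3029, 4209 and 8272 CPM, highest in WT, and those of connecting tubule were 2258, 6325 and 4368 CPM. Their part in the Aqp2 levels was not tested.

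Connecting tubule-like cells had Aqp2 at 633 CPM in Aoah-/- 2, 566 CPM in Aoah-/- 3 and 701 CPM in WT (log2 ratio -0.23, SD 0.11). Both Aoah-/- libraries were below WT. The level came from a subcluster led by S100g, Klk1 and Hsd11b2, with 96, 77 and 94 cells, where Aqp2 was at 1104, 1263 and 1535 CPM. Summed principal markers in connecting tubule-like cells were 2621, 2409 and 2921 CPM, in the same order as Aqp2, and their part was not tested. The S100g gene encodes the calcium buffer calbindin-D9k, and Hsd11b2 shields the mineralocorticoid receptor from glucocorticoids.

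Intercalated-like cells had Aqp2 at 156, 150 and 204 CPM (log2 ratio -0.42, SD 0.04), again lower in both Aoah-/- libraries. It was concentrated in few cells: the 5 highest cells held 44.3%, 41.9% and 44.9% of these UMIs. Summed principal markers in intercalated-like cells moved the same way, at 678, 715 and 1051 CPM, and their part was not tested. Outside these 3 classes Aqp2 was uneven between libraries. Aoah-/- 3 had 108.5 CPM in smooth muscle and pericyte-like cells from 149 UMIs, with 0 UMIs in the other 2 libraries, where the interval reached 5.99 and 8.58 CPM. Its urothelial-like cells had 103 CPM, against 9.52 CPM in Aoah-/- 2 and 44.5 CPM in WT.

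Aqp3, the basolateral water and glycerol channel, was at 1562 CPM in the principal-like cells of Aoah-/- 2 (interval 1487 to 1640), 1371 CPM in Aoah-/- 3 (1305 to 1440) and 1448 CPM in WT (1380 to 1519). The Aoah-/- libraries lay on either side of WT (log2 ratio 0.02, SD 0.13). Without the Clu-led cells Aqp3 was at 1718, 1557 and 2343 CPM, with both Aoah-/- libraries below WT (log2 ratio -0.52, SD 0.10). In the Clu-led cells it was at 468, 107 and 278 CPM, below the other principal-like cells in every library, as Aqp2 was.

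Urothelial-like cells were the next class in Aqp3 level, with 780, 685 and 549 CPM (log2 ratio 0.41, SD 0.13), and both Aoah-/- libraries were above WT. These cells numbered 524, 332 and 170, and their injured tubule markers summed to 583, 1412 and 2225 CPM, in the reverse order of Aqp3, with a part that was not tested. Aqp3 was found in 91.8%, 68.1% and 65.3% of them. In connecting tubule-like cells the Aoah-/- libraries lay on the other side of WT, with 241, 167 and 324 CPM (log2 ratio -0.67, SD 0.37). This class differed in make-up, with 297, 157 and 299 cells at median depths of 1690, 9683 and 2299 UMIs. A single subcluster gave 166, 32 and 156 of the cells. The part of this make-up in the Aqp3 level was not tested. Intercalated-like cells overlapped with connecting tubule-like cells, at 203, 221 and 270 CPM (log2 ratio -0.35, SD 0.08), and in both classes the Aoah-/- libraries were below WT. Within intercalated-like cells, Aqp3 was higher in cells called type B-like (235, 281 and 358 CPM) than in cells called type A-like (149, 149 and 205 CPM) in each library. PTEC-like cells had 23.9, 23.2 and 23.5 CPM, nearly equal in the 3 libraries.

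Aqp4, the other basolateral water channel, was highest in principal-like cells, where its mean level was 12.2-fold that of the next class. These cells held 77.5%, 61.7% and 49.0% of its UMIs. The gene lies on chromosome 18 (15389496 to 15410982, minus strand). It was at 89.0 CPM in Aoah-/- 2 (interval 71.8 to 109), 74.1 CPM in Aoah-/- 3 (59.4 to 91.4) and 62.5 CPM in WT (48.9 to 78.5). These rest on 93, 87 and 73 UMIs, and the intervals overlapped (log2 ratio 0.38, SD 0.19). Without the Clu-led cells Aqp4 was at 101, 69.4 and 109 CPM, which put both Aoah-/- libraries below WT (log2 ratio -0.36, SD 0.38). The Clu-led cells held 1, 16 and 1 Aqp4 UMIs. In WT, 40 further UMIs lay in 4 urothelial-like cells, 25 of them in 1 cell.

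The 3 collecting duct water channels were largely found in the same principal-like cells. Both Aqp2 and Aqp3 UMIs were counted in 88 of 91 cells in Aoah-/- 2, 104 of 119 in Aoah-/- 3 and 76 of 96 in WT. Aqp3 without Aqp2 was seen in 2, 6 and 14 cells, and Aqp2 without Aqp3 in 1 cell of each library. All cells with an Aqp4 UMI, 38, 39 and 25 of them, also held Aqp3. Both high levels and deep cells favour such joint counts, and no chance level was computed.

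**Figure D3:**
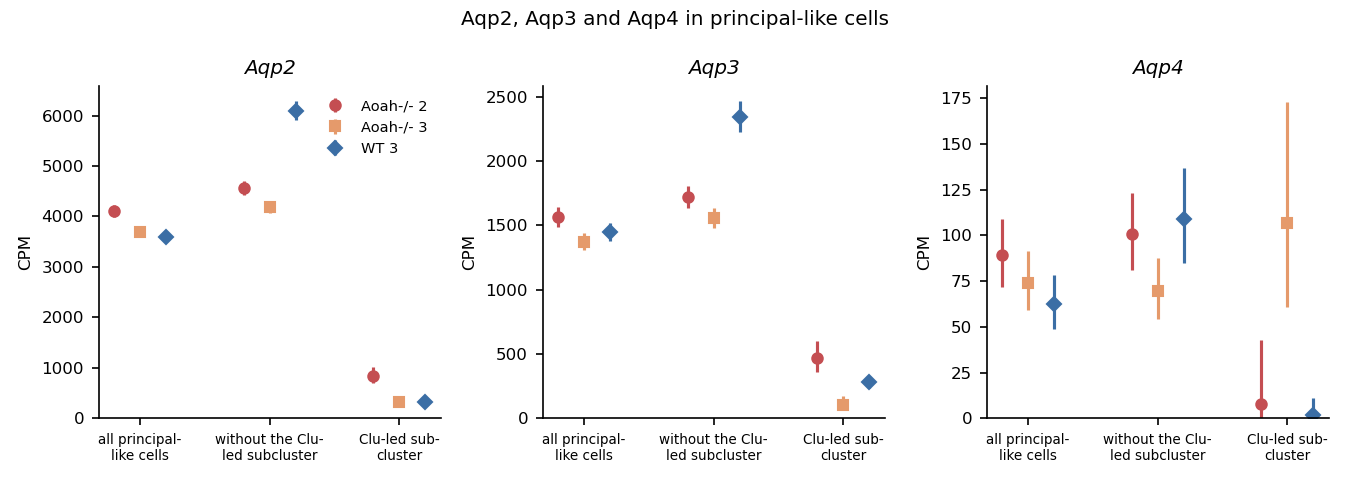
Levels (CPM) of Aqp2, Aqp3 and Aqp4 in all principal-like cells, in those outside the Clu-led subcluster and in the Clu-led subcluster, with 1 point per library and its 95% Poisson interval. For Aqp2 the WT point is the lowest over all cells (3593 CPM) and the highest without the Clu-led cells (6093 CPM).

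Among 7047 genes tested in principal-like cells, 2.23% were past the fold above WT and 4.81% below. Of the 4 aquaporins tested there (Aqp2, Aqp3, Aqp4 and Aqp6), Aqp6 was past the fold above WT and none below. Their median log2 ratio was 0.25 against -0.10 for all genes. Aqp6 reached the 20 CPM needed to be tested in Aoah-/- 2 alone, where it was highest. Its call and its place in the median rest on that selection. Without the Clu-led cells 3.37% of 6977 genes were above and 4.74% below. None of the 4 was then past the fold, and their median was -0.41 against -0.08.

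Aqp6, the vesicular channel of intercalated cells, was at 320 CPM in the intercalated-like cells of Aoah-/- 2 (interval 305 to 336), 442 CPM in Aoah-/- 3 (425 to 461) and 600 CPM in WT (575 to 626). Both Aoah-/- libraries were below WT, with no overlap in counting intervals (log2 ratio -0.65, SD 0.33). The mean level in this class was 20.4-fold that of the next class. An Aqp6 UMI was found in 43.0%, 47.8% and 62.8% of intercalated-like cells.

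Type A intercalated cells secrete acid and type B cells secrete bicarbonate, and Aqp6 lay almost wholly in the cells called type A-like. Types were called from the difference of type A and type B marker scores, each a mean log2 difference from the whole class. The type A-like cells include a subcluster of 118 cells with Clu and Lcn2 among its leading genes. Its type A score was -0.07 and its type B score -3.12. Type A-like cells had 788, 935 and 989 CPM (log2 ratio -0.20, SD 0.18), and held 87.8%, 90.6% and 94.98% of the class's Aqp6 UMIs. Type B-like cells had 55.3, 75.0 and 71.1 CPM (log2 ratio -0.13, SD 0.31), with the Aoah-/- libraries on either side of WT. Type A-like cells were 46.6%, 50.9% and 65.4% of the class, and type B-like cells 52.5%, 39.4% and 34.6%. The type A-like share had the same order of libraries as the class-wide Aqp6 level, and its part in that level was not tested. Within type A-like cells both Aoah-/- libraries were still below WT, with a ratio of -0.20 against -0.65 for the whole class. Erythroid markers in the class were also highest in WT, at 2852 CPM, against 565 and 603 CPM, and their part was not tested.

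**Figure D4:**
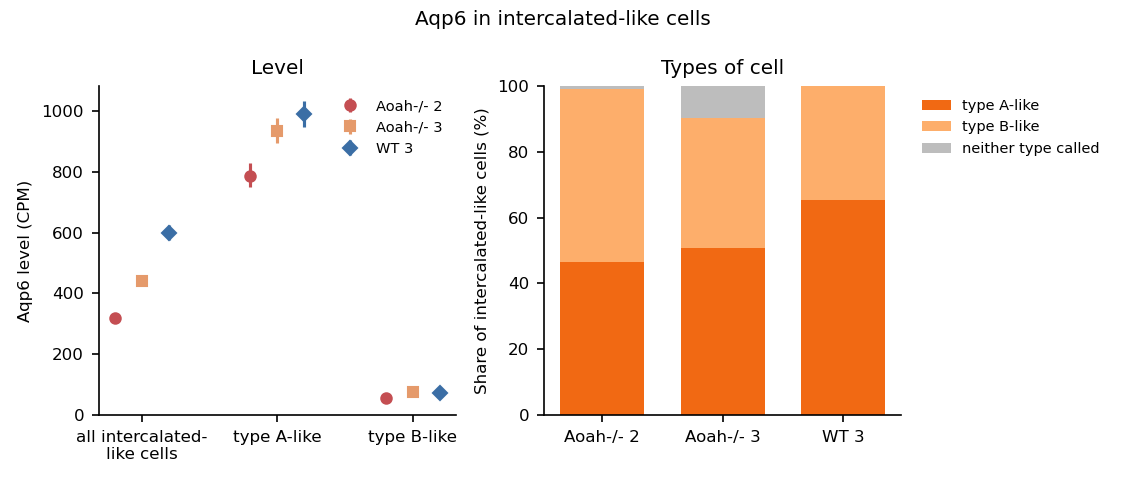
Aqp6 level (CPM) in all intercalated-like cells, type A-like and type B-like cells, with 1 point per library and its 95% Poisson interval, beside the share of each type in the class (percent, stacked by library). The type A-like points lie at 788, 935 and 989 CPM, closer to each other than the class-wide points at 320, 442 and 600 CPM, and the type A-like share is 46.6%, 50.9% and 65.4%.

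Intercalated-like cells had 0.921% of 6296 tested genes past the fold above WT and 0.699% below. None of the 3 aquaporins tested (Aqp2, Aqp3 and Aqp6) was past it, since Aoah-/- 3 lay less than 1.5-fold below WT for Aqp6. Their median log2 ratio was -0.42, against -0.04 for all genes. In principal-like cells Aqp6 was at 50.7, 10.2 and 5.99 CPM, from 53, 12 and 7 UMIs that sat in 5, 2 and 2 cells (log2 ratio 2.35, SD 1.63). Summed type A markers in those cells were 33.5, 15.3 and 10.3 CPM, in the same order, and their part was not tested.

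Aqp7, an aquaglyceroporin, was at 8.48 CPM in the PTEC-like cells of Aoah-/- 2 (interval 7.73 to 9.28), 8.99 CPM in Aoah-/- 3 (8.17 to 9.87) and 6.46 CPM in WT (5.89 to 7.07). Both Aoah-/- libraries were above WT outside its counting interval (log2 ratio 0.43, SD 0.06). At this level Aqp7 was under the 20 CPM needed to be counted among the tested genes. S1/S2-like cells had 10.7, 11.7 and 11.0 CPM (log2 ratio 0.03, SD 0.09), with the Aoah-/- libraries on either side of WT. S3-like cells had 6.15, 6.43 and 5.19 CPM (log2 ratio 0.28, SD 0.045). Cells called neither had 5.99, 6.85 and 4.61 CPM (log2 ratio 0.48, SD 0.14). In S3-like and in uncalled cells both Aoah-/- libraries were above WT. Aqp7 was thus higher in S1/S2-like than in S3-like cells in each library, the reverse of Aqp1, and the larger S1/S2-like share in the Aoah-/- libraries moved with its class-wide level, in a part that was not tested. The higher mean of plasma cell-like cells rested on 2 UMIs in WT.

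Aqp11 was at 43.2 CPM in the PTEC-like cells of Aoah-/- 2, 48.3 CPM in Aoah-/- 3 and 50.4 CPM in WT (log2 ratio -0.14, SD 0.11). Both Aoah-/- libraries were below WT, by little in Aoah-/- 3. The segments had near levels, with 43.1, 46.4 and 49.9 CPM in S1/S2-like and 44.5, 51.5 and 53.8 CPM in S3-like cells, each in the same order of libraries. In PTEC-like cells called neither, Aqp11 was at 37.2, 37.3 and 35.9 CPM (log2 ratio 0.05, SD 0.003), with both Aoah-/- libraries above WT. Aqp11 was not a PTEC gene alone. Endothelial-like cells had 23.3, 18.2 and 21.8 CPM (log2 ratio -0.08, SD 0.25), and the Slc14a1-led endothelial subcluster had 94.5, 93.4 and 98.4 CPM, above the PTEC-like level in every library.

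Aqp9 was highest in granulocyte-like cells, where its mean was 7.26-fold that of the next class. It was at 25.2 CPM in Aoah-/- 2 (interval 17.97 to 34.3), 35.8 CPM in Aoah-/- 3 (27.7 to 45.6) and 40.7 CPM in WT (25.2 to 62.2). The intervals overlapped, and the values rest on 40, 66 and 21 UMIs (log2 ratio -0.42, SD 0.36). Granulocyte-like cells numbered 827, 642 and 220. Of 5612 genes tested in them, 11.6% were past the fold above WT and 3.23% below, and neither of the 2 aquaporins tested, Aqp1 and Aqp9, was.

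Macrophage-like cells had Aqp9 at 11.3 CPM in Aoah-/- 2, 0.579 CPM in Aoah-/- 3 and 2.13 CPM in WT, from 159, 5 and 11 UMIs. Aoah-/- 2 was highest and Aoah-/- 3 lowest. Prg4-led subclusters (Prg4 encodes lubricin) held 93.1% of these UMIs in Aoah-/- 2, 40.0% in Aoah-/- 3 and 100% in WT. They made up 49.3%, 18.7% and 10.7% of macrophage-like cells, with Aqp9 at 16.6, 1.56 and 9.71 CPM. The make-up of these subclusters differed between libraries. In Aoah-/- 2, 1181 of the 1500 cells lay in the largest of them, whereas in Aoah-/- 3, 263 of 274 lay in another, whose leading genes included the proximal tubule genes Kap, Miox and Lrp2. In that largest subcluster Aqp9 was at 19.8, 25.8 and 17.6 CPM, with overlapping intervals, on 1181, 10 and 65 cells. Over all kept cells Aqp9 was at 2.20 and 0.959 CPM in the Aoah-/- libraries and 0.5055 CPM in WT (log2 ratio 1.64, SD 0.85), and macrophage-like cells held 159 of the 290 UMIs of Aoah-/- 2. Median depth of macrophage-like cells was 3610, 4414 and 1012 UMIs.

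**Figure D5:**
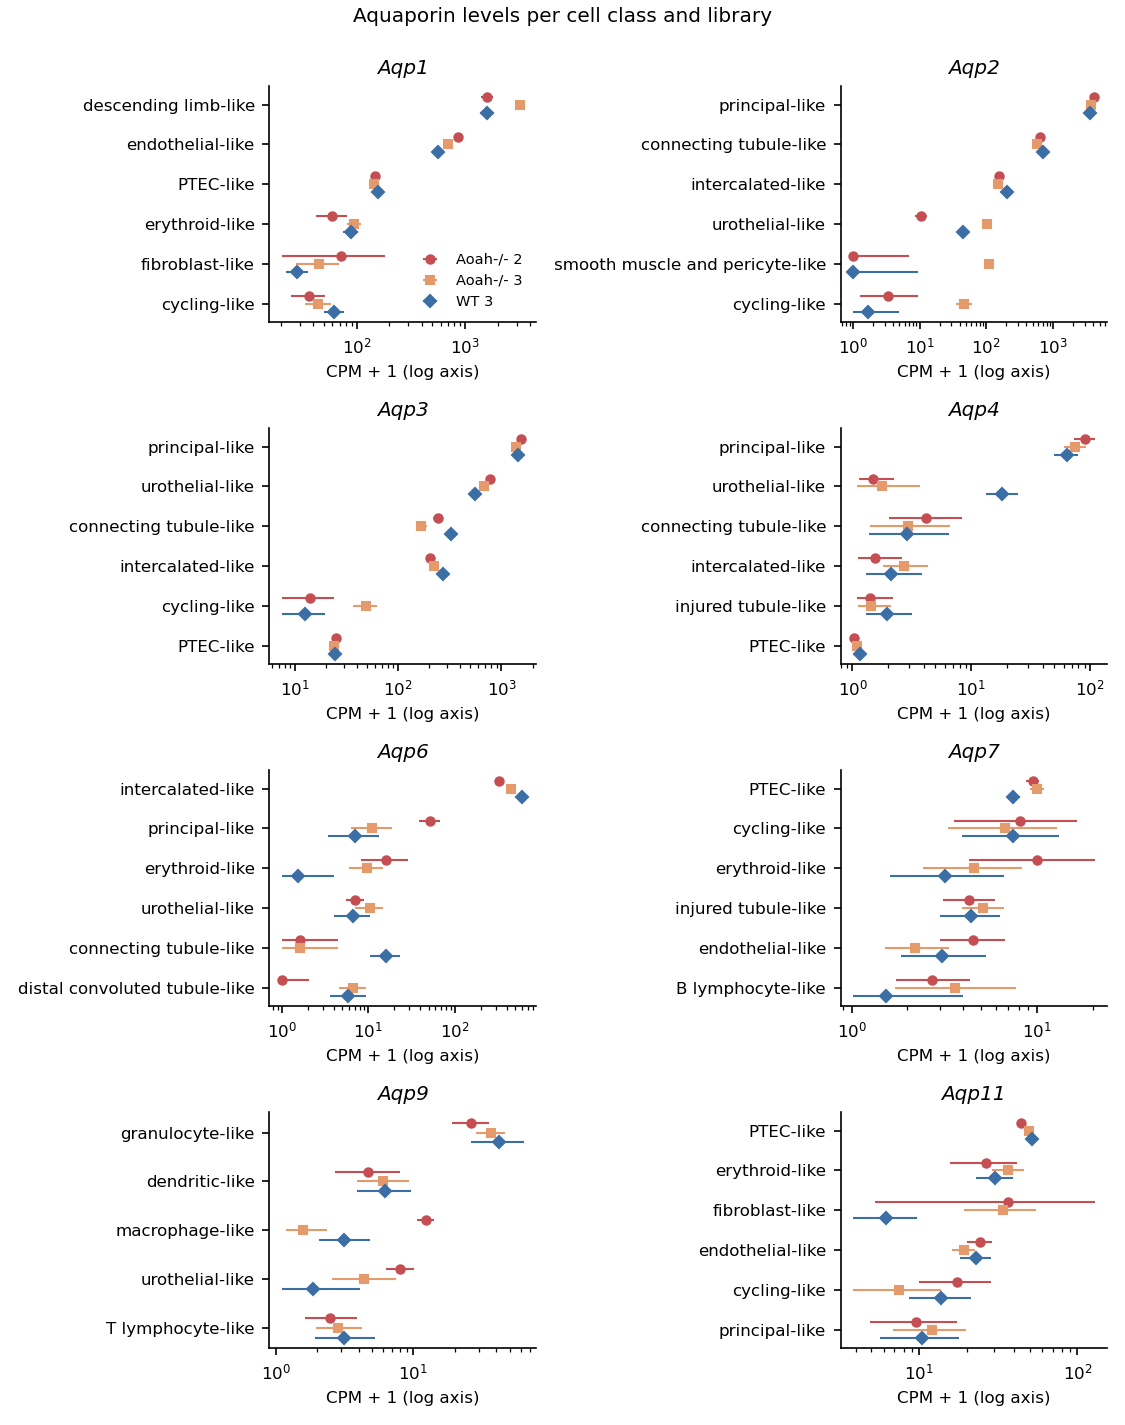
Levels (CPM + 1, log axis) of the 8 aquaporins in up to 6 named classes with the highest mean and at least 10 UMIs of the gene, with 1 point per library and its 95% Poisson interval. Descending limb-like, principal-like and intercalated-like cells lead for Aqp1, for Aqp2 to Aqp4 and for Aqp6, and in each leading class the 3 libraries lie closer to each other than to the next class for Aqp2, Aqp3, Aqp4, Aqp6 and Aqp9.

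To set the share of cells with a UMI apart from depth and from free RNA, each cell was thinned to 1000 UMIs and compared with T and B lymphocyte-like cells, taken as a background class. Their median depth was 2625 to 2890 UMIs. In principal-like cells 89.0%, 79.8% and 68.8% held an Aqp2 UMI after thinning, against 0.299%, 0.247% and 0.224% of lymphocyte-like cells. For Aqp3 the principal-like shares were 72.5%, 72.3% and 66.7%, against 0.730%, 0.863% and 1.01%, and without thinning they were 98.9%, 92.4% and 93.8%. For Aqp6 the intercalated-like shares were 23.6%, 26.8% and 35.2%, against 0.133%, 0.0822% and 0% of 1790 lymphocyte-like cells in WT, which allows up to 0.206% (exact binomial bound). These shares kept the order of the libraries seen in the levels for Aqp6 and for Aqp2. The principal-like shares include the Clu-led cells, of which 84.6%, 15.4% and 45.7% held an Aqp2 UMI without thinning. In the other principal-like cells the unthinned Aqp2 shares were 100%, 97.2% and 100%, without that order.

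Aqp1 was found in 12.2%, 12.2% and 12.1% of thinned PTEC-like cells and in 7.07%, 7.24% and 7.34% of thinned endothelial-like cells, against 1.06%, 1.19% and 0.670% of lymphocyte-like cells. The endothelial-like shares were nearly equal, although the summed level was higher in the Aoah-/- libraries. Aqp7 was in 0.692%, 0.914% and 0.671% of thinned PTEC-like cells, against 0.0995%, 0.123% and 0.0559%. Aqp9 was in 2.80%, 3.58% and 2.42% of granulocyte-like cells, against 0.199%, 0.123% and 0.168%. In macrophage-like cells of Aoah-/- 3 its share, 0.0683%, was no higher than the lymphocyte-like one. The lymphocyte-like class was uneven for Aqp9, with mean levels of 1.83 CPM in T and 0.0711 CPM in B lymphocyte-like cells. For Aqp3 these means were 11.3 and 6.13 CPM, for Aqp1 10.9 and 24.7 CPM and for Aqp11 1.99 and 6.86 CPM. For each of these genes the lymphocyte-like class may hold more than free RNA. Thinning left out 1913 PTEC-like cells of Aoah-/- 2, 0 of Aoah-/- 3 and 1787 of WT as shallower. Aqp11 was in 3.97%, 4.30% and 4.46% of thinned PTEC-like cells, against 0.398%, 0.247% and 0.168%, and Aqp4 in 6.59%, 3.36% and 5.21% of thinned principal-like cells, against 0 lymphocyte-like cells of 3015, 2433 and 1790, which allows up to 0.122% to 0.206%. Without thinning Aqp4 was in 41.8%, 32.8% and 26.0%. Also without thinning, Aqp7 was in 5.27%, 8.33% and 4.62%, Aqp11 in 20.9%, 31.0% and 25.9%, and Aqp1 in 39.1%, 52.2% and 43.0% of PTEC-like cells, each most often in Aoah-/- 3, whose PTEC-like cells were deepest (medians of 3096, 6434 and 4857 UMIs). The unthinned Aqp9 shares were 4.47%, 8.72% and 8.64% of granulocyte-like cells.

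The genes around the water channels were followed in lists of pathway members. Of 19 genes of vasopressin signalling and Aqp2 transcription and trafficking, 16 were tested in principal-like cells. None was past the fold above WT, and 1 was below, near the 4.81% of all genes: the chaperone gene Hspa8 at 886 and 850 CPM against 1335 CPM in WT. The vasopressin receptor gene Avpr2 was at 218, 170 and 252 CPM and did not pass the fold. Without the Clu-led cells Avpr2 was at 244, 194 and 385 CPM and the transcription factor gene Elf5 at 12.0, 12.7 and 24.2 CPM. These 2 of 17 tested were past the fold below WT, as were 4.74% of all genes tested there. Elf5 reached 20 CPM in WT alone, so it counted as tested only through the library where it was high.

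Over all genes tested in principal-like cells, 2.23% were past the fold above WT and 4.81% below. Without the Clu-led cells these shares were 3.37% and 4.74%. Among 8 tested of 9 principal cell channel and pump genes, 1 was past the fold: the epithelial sodium channel subunit gene Scnn1a, above WT at 409 and 430 CPM against 241 CPM. Without the Clu-led cells the call moved to Fxyd4, a regulator of the sodium pump, below WT at 1843 and 1903 CPM against 3057 CPM. Of 5 tested of 6 tonicity-response genes none was past the fold over the whole class, and without the Clu-led cells Slc5a3, the myo-inositol transporter gene, was above WT at 50.3 and 59.6 CPM against 28.7 CPM. Of 5 tested of 7 glycerol-handling genes only Mgll, a monoglyceride lipase, was, above WT at 57.4 and 73.3 CPM against 26.5 CPM. Of 6 tested of 8 acid secretion genes, 2 were past the fold above WT in principal-like cells, as Aqp6 was. They were Atp6v1g3 (74.6, 75.8 and 17.1 CPM), a proton pump subunit, and Foxi1 (57.4, 23.01 and 9.41 CPM), the transcription factor of intercalated cells. Both reached the level needed to be tested in the Aoah-/- libraries alone, and Aqp6 reached it in Aoah-/- 2 alone. These calls above WT rest on that selection and say little about the list.

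In intercalated-like cells 3 of 8 tested principal cell channel and pump genes were past the fold, all below WT, as were 0.699% of all genes there: Scnn1g (43.7, 43.5 and 72.7 CPM), Kcnj10 (23.4, 25.7 and 41.2 CPM) and Fxyd4 (67.1, 62.2 and 137 CPM). Aqp2 and Aqp3 lay on the same side in that class without passing it. In PTEC-like cells, where 1.91% of all genes were above WT and 0.945% below, no gene of these lists was past the fold. Tested there were 9 vasopressin, 2 channel and pump, 4 tonicity, 4 glycerol-handling and 2 acid secretion genes. With so few genes tested at these shares, the lack of a call says little about the lists. In endothelial-like cells 2.33% of all genes were above WT. The calls above WT there included 1 of 2 tested channel and pump genes (Atp1b1 at 146, 168 and 85.5 CPM) and 1 of 5 tonicity genes (Akr1b3 at 194, 133 and 88.5 CPM). Of 8 acid secretion genes only 2 were tested, and both were called (Atp6v1g3 at 20.2, 23.4 and 9.57 CPM and Car2 at 43.9, 63.3 and 27.2 CPM). In endothelial-like cells Atp6v1g3 reached 20 CPM in the Aoah-/- libraries alone, so it counted as tested only through the group where it was high. Summed connecting tubule markers in these cells were likewise higher in the Aoah-/- libraries, at 213 and 335 CPM against 95.9 CPM, and their part was not tested. In granulocyte-like cells, where 11.6% of all genes were above WT and 3.23% below, 1 of 9 tested vasopressin genes was above (Rab11fip2) and 1 below (Gata2). There Akr1b3, of 4 tonicity genes, and Atp6v0d2 and Car2, of 3 acid secretion genes, were also above WT.

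Across the 23 classes, the genes whose mean levels were most like those of each aquaporin were named by Pearson's r of log2(CPM + 10) over 7346 genes. The classes share libraries and depth, so r is a description. The nearest gene was Irx3 for Aqp1 (r = 0.882), Kcne1 for Aqp2 (0.984), Lypd6 for Aqp3 (0.938) and Mcoln3 for Aqp4 (0.963). For Aqp6 it was Foxi1 (0.990), for Aqp7 Rhobtb1 (0.894), for Aqp9 Cxcl3 (0.961) and for Aqp11 Gchfr (0.913). The class means of Aqp7 reached only 8.85 CPM, in plasma cell-like cells, which is under the 10 CPM added before the logarithm. Aqp2 was itself the third gene in likeness to Aqp3 (0.899), and Fxyd4 was second for both (0.967 for Aqp2 and 0.928 for Aqp3). Foxi1 and Fxyd4 were among the markers that named the intercalated and principal classes.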

How the data were processed

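Single-cell suspensions of whole kidneys were run on the 10x Chromium 3′ platform. The authors aligned reads and counted unique molecular identifiers (UMIs) with Cell Ranger against mm10 per the submitters' processing notes (version 3.1.0 in the notes, 6.1.2 in the deposited matrix headers), and deposited 1 filtered matrix of raw counts per gene and cell for each library.

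From these counts, barcodes under 200 genes or over 50% mitochondrial UMIs were dropped. Counts were scaled to 10000 UMIs a cell, and 2000 variable genes without the aquaporins, Aoah, Cd74 and MHC class II genes, 50 principal components, 15 neighbours and Leiden clustering at resolution 1 were used (scanpy 1.11.5, igraph 0.11.9, numpy 2.4.6). Subclusters within compartments used 30 components. Resolution was 0.5 for PTEC-like, macrophage-like and urothelial-like cells and 1 for endothelial-like cells. Subclusters of these classes that missed the naming rule, as mixed or too small, stayed in the values of their class. Cells first named distal convoluted tubule, connecting tubule, principal or intercalated were clustered again as 1 group at resolution 1 and named anew. Cells first named injured tubule were treated in the same way. A cluster was named "X-like" when at least 3 markers of X were 2-fold higher than elsewhere, their mean log2 difference was at least 2, and its 10 leading genes did not go against the name. A cluster stayed unnamed when a class of another lineage had at least 0.5 of the marker strength of its best class. No doublet call was applied in the values given. Scrublet with an expected rate of 0.08 called 2.42% of Aoah-/- 2, 1.35% of WT and 0 cells of Aoah-/- 3, where it did not work, and its removal was tried as an alternative. UMIs were summed per library and class. Genes at 20 CPM or more in at least 1 library counted as tested, with 1 CPM added before folds. A gene could thus count as tested only through the libraries where it was high. Genes alike in pattern were the 3 with the highest r, at 100 UMIs and 50 CPM or more. With 1 WT library no test across libraries was run. Labels give 1 mouse a library, so depth, mouse and genotype are not separable for WT. The scripts were tested on simulated data. Members, gene lists and subcluster splits were chosen with earlier results of these data known. Genes named were the 8 aquaporins, list members past the fold, Avpr2, the genes most alike, and leading genes of subclusters that were singled out after their values were seen. Promoter sequences are RefSeq's. An exact Poisson interval gives counting error, and a count of 0 allows up to 3 counts.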

Additional observations from a re-analysis of the deposited data

Results flagged for a closer look

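Among classes with at least 20 CPM and 50 UMIs of the gene in every library, 3 aquaporins had both Aoah-/- libraries above WT in 1 class and both below in another. The log2 ratio of Aqp1 was 0.47 in endothelial-like and -0.11 in PTEC-like cells, and the latter was on the same side in 11 of 14 alternatives, with 0.01, 0.04 and 0.15 in the others. Aqp2 had 0.12 in principal-like cells, against -0.23 in connecting tubule-like and -0.42 in intercalated-like cells. The principal-like value turned to -0.48 without the Clu-led cells, which puts the 3 classes on 1 side. It turned to -0.43 at 20% mitochondrial UMIs or fewer, where the connecting tubule-like and intercalated-like ratios were not recomputed. For Aqp3 the ratio was 0.41 in urothelial-like cells, against -0.67 in connecting tubule-like and -0.35 in intercalated-like cells. With 1 WT library none of these differences between classes was tested.

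A cluster of 146 cells, 145 of them from WT, stayed unnamed because mesothelial and fibroblast markers both led it (Dcn, Igfbp6, C3, Upk3b). It held Aqp1 at 225.7 CPM and Aqp5, a water channel of glands and airways, at 45.14 CPM. The 1 other cell was from an Aoah-/- library, so the genotypes could not be compared there.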

How the results depend on the processing

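No paired analysis was possible because the 2 genotypes share only replicate number 3. The 9 class-wise log2 ratios were recomputed under 11 to 14 alternatives each. Aqp1 in endothelial-like, Aqp6, Aqp7, Aqp9 and Aqp11 kept the side of WT in all those run, with ranges of 0.22 to 1.61, -0.91 to -0.13, 0.03 to 0.54, -0.69 to -0.13 and -0.22 to -0.01. Aqp1 in PTEC-like cells changed side in 3 of 14 alternatives, Aqp2 and Aqp4 in principal-like cells in 2 of 11 each, and Aqp3 was above 0 in 5 of 11. With cells above 20% mitochondrial UMIs left out, the ratios were 0.01 for Aqp1 in PTEC-like cells, 0.31 for Aqp7, -0.43 for Aqp2, -0.54 for Aqp3 and -0.34 for Aqp4. As a mean of the cells' own values, Aqp1 in PTEC-like cells had 0.04, Aqp7 0.54, Aqp11 -0.01, Aqp1 in endothelial-like cells 0.22 and Aqp3 -0.14. With the lymphocyte-like level subtracted, Aqp1 in PTEC-like cells had -0.17. Removing Scrublet calls gave 0.37 for Aqp7, and for Aqp2 and Aqp4 0.78 and 4.85, where the class shrank to 14, 13 and 35 cells. That is near the size of the Clu-led subcluster (13, 13 and 35 cells), whose own ratios were 0.85 for Aqp2 and 4.85 for Aqp4. Scrublet called 0 cells in Aoah-/- 3, where the class still fell from 119 to 13 cells on clustering anew. Each library clustered alone gave 0.37 for Aqp7. At least 500 genes, and a common lowest total of 1672 UMIs, each gave 0.24 for Aqp2. The cause of these moves was not tested.

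Some alternatives were chosen after seeing the data. S1/S2-like cells alone gave 0.15 for Aqp1 and 0.03 for Aqp7, and S3-like cells alone -0.01 and 0.28. Endothelial-like Aqp1 without the Slc14a1-led cells had 1.61. Without the Clu-led cells Aqp2, Aqp3 and Aqp4 had -0.48, -0.52 and -0.36. Aqp6 had -0.20 in type A-like and -0.13 in type B-like cells. The leading class was the same for 5 of 8 aquaporins with 30 principal components and for 4 of 8 with each library clustered alone, and neither setting gave principal-like cells in all libraries. At resolution 2 it was the same for 7 of 8, and endothelial-like cells led for Aqp1. With Scrublet calls removed it was also the same for 7 of 8, and urothelial-like cells led for Aqp3. Without thinning, 32 pairs of gene and class exceeded the lymphocyte-like share in every library, against 18 at 1000 UMIs.

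With 1 Aoah-/- library left out at a time, the ratio ranged from -0.13 to -0.09 for Aqp1 in PTEC-like cells, 0.39 to 0.48 for Aqp7, -0.22 to -0.06 for Aqp11, 0.31 to 0.61 for Aqp1 in endothelial-like cells, 0.04 to 0.19 for Aqp2, -0.08 to 0.11 for Aqp3, 0.25 to 0.51 for Aqp4, -0.91 to -0.44 for Aqp6 and -0.69 to -0.18 for Aqp9. The WT library could not be left out. Depth limits Aqp4, Aqp7 and Aqp9 most, with 410, 1784 and 478 UMIs in all kept cells.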

Other observations

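Of the 4 aquaporin genes that were not followed class by class, Aqp8, a mitochondrial and plasma membrane channel, was at 1.94, 1.91 and 1.90 CPM in the PTEC-like cells of Aoah-/- 2, Aoah-/- 3 and WT, with little spread. Mip, the lens aquaporin, and Aqp12 had 4 and 2 UMIs in all. Intercalated-like cells with and without an Aqp2 UMI held an Aqp6 UMI in near shares, untested: 42.6% and 43.1% of cells in Aoah-/- 2, 43.1% and 48.5% in Aoah-/- 3, and 66.0% and 61.8% in WT.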
